A study of Mus musculus with 37 samples.

Results

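The enzymes of amino acid catabolism described here are 9 liver genes, chosen as a named list: Tat, Hpd, Tdo2, Hal, Sds, Gls2, Got1, Gpt and Agxt. The list was chosen with earlier results of these data known. All probes with these symbols were taken, which gave 18 of the 30146 probes and 9 of the 21450 gene symbols in the table, and all 18 probes passed the filter on low counts that kept 18570 probes. Gene expression was measured by TempO-Seq, a targeted assay that counts reads on gene-specific probe pairs, in formalin-fixed, paraffin-embedded liver sections of 37 Crl:CD1(ICR) mice, an outbred stock. Mice received HFPO-DA, a short-chain perfluoroalkyl ether acid given as its ammonium salt, in deionized water by oral gavage once a day, and controls received the water alone. The male groups held 5 controls and 5, 5 and 4 mice at the doses of 0.1, 0.5 and then 5 mg/kg, and the female groups held 5, 5, 4 and 4 mice in the same order. Males were about 6 weeks old at the first dose and received 84 to 85 doses, over 70 days before mating and 14 days of mating. Females were about 11 weeks old at the first dose and received 53 to 65 doses, from 14 days before mating to lactation day 20 or 21. Every female was therefore a nursing dam and every male a sire, so sex, reproductive status, age and the number of doses cannot be told apart.

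The liver is the main site where surplus amino acids lose their nitrogen. Transaminases such as Tat, Got1 and Gpt move the amino group to a keto acid, deaminases such as Hal and Sds release it as ammonia, and glutaminase releases it from glutamine. The carbon skeletons then enter the tricarboxylic acid cycle, gluconeogenesis or ketone body synthesis, and the ammonia enters the urea cycle. Several of these genes, Tat and Sds among them, are known to respond to fasting, glucagon, glucocorticoids and dietary protein, and Hal, Sds and Gls2 are known to be expressed mostly in hepatocytes around the portal vein.

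The promoters of the genes described first are shown because these genes were lowered in both sexes (Hal, Hpd and Agxt) or differed between the sexes (Tat). Of the 9 genes, 6 had an entry in the RefSeq promoter table of build GRCm38.p6, and the promoters of Sds, Gls2 and Gpt were not analysed here. Each sequence is the 250 bases before the RefSeq transcription start, 5′ to 3′ on the strand of the gene. Capitals mark any match, on either strand, to TATAAA (the TATA box), CCAAT (the CCAAT box), AGGTCA (a nuclear receptor half-site) or TGTTCT (a glucocorticoid receptor half-site).
Hal (chr10:93488518-93488767, forward strand): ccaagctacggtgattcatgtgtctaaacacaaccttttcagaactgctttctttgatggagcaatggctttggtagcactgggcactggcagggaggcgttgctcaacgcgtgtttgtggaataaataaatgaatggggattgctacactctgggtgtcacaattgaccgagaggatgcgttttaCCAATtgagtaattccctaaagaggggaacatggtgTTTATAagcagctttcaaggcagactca
Hpd (chr5:123182724-123182973, reverse strand): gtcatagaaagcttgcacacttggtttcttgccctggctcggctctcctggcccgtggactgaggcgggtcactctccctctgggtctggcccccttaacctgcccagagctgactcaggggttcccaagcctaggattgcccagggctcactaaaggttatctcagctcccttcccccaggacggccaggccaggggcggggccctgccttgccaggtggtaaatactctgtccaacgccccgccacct
Agxt (chr1:93134990-93135239, forward strand): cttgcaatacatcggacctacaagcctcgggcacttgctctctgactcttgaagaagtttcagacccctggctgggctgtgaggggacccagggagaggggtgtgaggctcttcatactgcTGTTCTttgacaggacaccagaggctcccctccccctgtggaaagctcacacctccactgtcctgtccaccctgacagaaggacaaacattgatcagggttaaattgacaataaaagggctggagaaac
Tat (chr8:109990186-109990435, forward strand): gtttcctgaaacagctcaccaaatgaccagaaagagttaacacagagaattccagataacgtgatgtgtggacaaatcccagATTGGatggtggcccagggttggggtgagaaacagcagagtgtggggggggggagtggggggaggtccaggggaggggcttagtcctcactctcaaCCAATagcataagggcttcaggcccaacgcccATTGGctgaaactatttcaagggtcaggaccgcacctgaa

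No motif was shared by all 4 windows. The Hal window held 1 CCAAT and 1 TATAAA, the latter on the opposite strand. Tat held 3 CCAAT matches, Agxt held 1 TGTTCT match, and no match to the 4 motifs was found in the Hpd window. The windows of Tdo2 and Got1, not shown, each held 1 AGGTCA match. Tdo2 also held 1 TATAAA and 1 CCAAT, and Got1 held 5 CCAAT matches. Of the 32851 RefSeq promoter windows of the same length, 12.4% held TATAAA, 33.8% held CCAAT, 14% held AGGTCA and 16.1% held TGTTCT. These matches describe the letters only and say nothing on binding.

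Levels are given as CPM, the counts of a probe scaled to a library of 1000000 after TMM normalization, and each value listed is 1 mouse. Probes differ in how well they capture their transcript, so levels were tested between mice for 1 probe and never between probes. Sums over marker probes and remarks on low levels describe the readout and not amounts of transcript. Differences are log2 fold changes from edgeR's quasi-likelihood test over all 18570 probes, with Benjamini-Hochberg adjusted p-values and a threshold of 0.10. The standard error (SE) was derived as the absolute log2 fold change divided by the square root of the F value of the test. The 95% intervals were built from this SE with a t quantile. The probe of a gene with the highest total count is called its leading probe. Total counts ranged from 2101495 to 13878254, with males from 2101495 to 10548222 and females from 7952605 to 13878254. All 4 libraries under 5000000 counts came from males, 1 at 0.1 mg/kg, 1 at 0.5 mg/kg and 2 at 5 mg/kg. Of the 666 values of the 18 probes, 8 were at 0 counts, and they fell in these same 4 libraries, where 0 counts allow up to 0.707 to 1.13 CPM (3 counts, counting error only). Of the 6 general hepatocyte markers measured, none was at 0 in every mouse of a group, and they summed to at least 12821 CPM in each mouse. The cholangiocyte and lymphocyte lists summed to at most 84.6 and 14.2 CPM, and sums of different lists rest on different probes.

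At 5 mg/kg, 11 of the 18 probes were lowered in males and 7 in females, and none was raised in either sex by edgeR (adjusted p under 0.10). DESeq2 called 11 and 9 of them lower and none higher. Across all probes tested, 8.49% were lowered in males and 2.26% in females, against 11 of 18 and 7 of 18 here. The genes were chosen with earlier results of these data known, so the comparisons with all probes are not an independent test. The lowered probes belonged to 7 genes in males (Tat, Hpd, Hal, Sds, Gls2, Got1 and Agxt) and to 4 in females (Hpd, Hal, Gls2 and Agxt). The median log2 fold change of the 18 probes was -1.32 in males, with -0.12 over all probes, and -0.89 in females, with -0.01 over all probes. All 18 probes had a log2 fold change below 0 in males and 14 had one in females, while over all probes 55.6% and 50.6% did. In 7 probes every 5 mg/kg male was below every control male, and in 9 probes every 5 mg/kg female was below every control female, where 4.8% and 4.31% of all probes did the same. At an unadjusted p under 0.05, 14 probes were lower in males, where 15.9% of all probes were, and 11 were lower and 1 higher in females, where 6.49% and 5.85% of all probes were. In bulk liver, fewer cells of a type and less RNA per cell cannot be told apart.

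**Figure D1:**
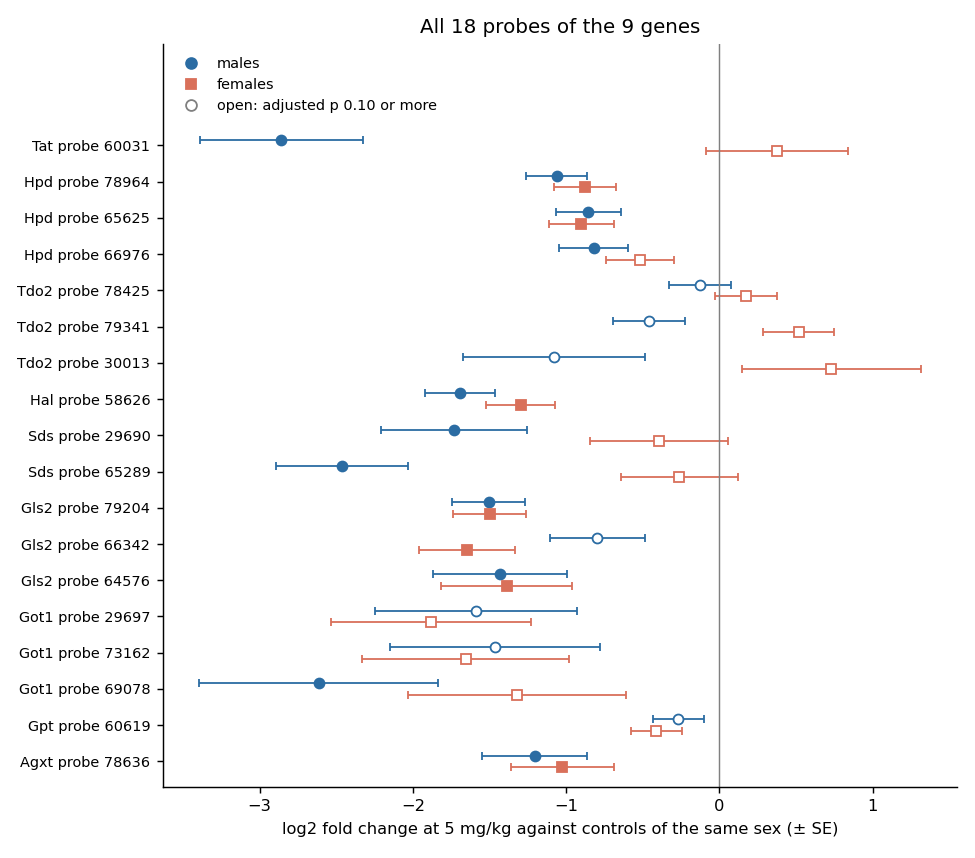
Log2 fold change with its SE (x axis) of the 18 probes of the 9 genes (y axis) at 5 mg/kg against controls of the same sex, with males as circles and females as squares. Filled symbols have an adjusted p under 0.10. Male symbols lie left of 0 for all 18 probes, while Tat and the 3 Tdo2 probes of females lie right of 0.

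Hal, histidine ammonia-lyase, which releases the amino group of histidine in its first degradation step, was lowered in both sexes. Its gene lies at chr10:93488768-93519304 (GRCm38, GENCODE M21). Control males had 622, 460.3, 651, 798 and 561 CPM and 5 mg/kg males 246, 229, 147 and 143 CPM. Every dosed male at 5 mg/kg was below every control male. The level was 3.23-fold lower (log2 fold change -1.69, SE 0.23, adjusted p = 8.85e-07). Control females had 1104, 1123, 940.2, 1247 and 1196 CPM and 5 mg/kg females 414, 425, 374 and 615 CPM, again without overlap, and the level was 2.46-fold lower (log2 fold change -1.30, SE 0.22, adjusted p = 0.00012). At 0.1 and 0.5 mg/kg the mean was 439 ± 173 and 415 ± 118 CPM in males (SD, n = 5 each), and 844 ± 64.4 CPM (SD, n = 5) and 667 ± 97.2 CPM (SD, n = 4) in females. The female mean was lower at each higher dose, and at both doses every dosed female was below every control female, but neither difference passed the edgeR threshold (adjusted p = 1 and 0.547). How many of all probes lay without overlap at these doses was not counted.

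Gls2, the liver-type mitochondrial glutaminase that releases ammonia from glutamine, was lowered in both sexes. It lies at chr10:128194457-128210004 and has 3 probes. With leading probe 79204, control males had 377, 263, 291, 293 and 238 CPM and 5 mg/kg males 140.1, 144, 47.6 and 79.6 CPM. Control females had 407, 317, 457, 448 and 456 CPM and 5 mg/kg females 172, 126, 121 and 171 CPM. Neither sex showed any overlap between controls and 5 mg/kg. The fall was of nearly equal size in both sexes, 2.84-fold in males (log2 fold change -1.50, SE 0.24, adjusted p = 1.67e-05) and 2.82-fold in females (log2 fold change -1.50, SE 0.24, adjusted p = 2.76e-05). The difference between the sexes in this log2 fold change was -0.01 (95% interval -0.66 to 0.64, edgeR adjusted p = 1). Probe 64576 was lowered in males and females as well (log2 fold change -1.43 and -1.39). Its male call was lost with each sex fitted apart (edgeR adjusted p = 0.164), and with counts thinned to the smallest total both calls were lost (edgeR adjusted p = 0.123 in males and 0.442 in females). Probe 66342 was lowered in females (log2 fold change -1.65) and its male value was -0.80 (edgeR adjusted p = 0.103). This male value was called in 22 of the 37 fits that left out 1 mouse. In males 1 of the 5 mg/kg mice had 50.97 CPM with probe 66342, inside the control range of 30.97 to 59.4 CPM. Leaving out this mouse gave a log2 fold change of -1.46 (edgeR adjusted p = 0.000953).

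Hpd, 4-hydroxyphenylpyruvate dioxygenase, which carries out the step after Tat in tyrosine breakdown, was lowered in both sexes. It lies at chr5:123171807-123182727 on the reverse strand and has 3 probes. With leading probe 78964, control males had 4362, 4182, 3565, 3432 and 3178 CPM and 5 mg/kg males 2046, 2435, 1216 and 1474 CPM, with no overlap and a 2.09-fold lower level (log2 fold change -1.06, SE 0.20, adjusted p = 0.000289). Control females had 5518, 5219.6, 4773, 5069.5 and 5399 CPM and 5 mg/kg females 2343, 2073, 2632 and 4264 CPM, also without overlap, with a 1.84-fold lower level (log2 fold change -0.88, SE 0.20, adjusted p = 0.00447). The fourth female at 5 mg/kg, at 4264 CPM, stood well above the other 3. Probe 65625 was lowered as well (log2 fold change -0.85 for males and -0.90 for females). Probe 66976 was lowered in males (log2 fold change -0.82), and its female value was -0.52 (edgeR adjusted p = 0.275). Without the libraries under 5000000 counts, which left 2 males at 5 mg/kg, the calls of probes 65625 and 66976 in males were lost (edgeR adjusted p = 0.106 and 0.122).

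Agxt, alanine-glyoxylate aminotransferase, which turns glyoxylate into glycine, was lowered in both sexes. Its position is chr1:93135240-93145421. Control males had 78.8, 60.8, 65.9, 75.2 and 129 CPM and 5 mg/kg males 20.8, 63.00, 41.6 and 16.7 CPM. The second 5 mg/kg male, at 63.00 CPM, lay above the lowest control. The level was 2.30-fold lower (log2 fold change -1.20, SE 0.34, adjusted p = 0.0199). Control females had 114, 105, 178, 93.5 and 101 CPM and 5 mg/kg females 51.8, 56.00, 59.7 and 65.2 CPM, without overlap and with a 2.04-fold lower level (log2 fold change -1.03, SE 0.34, adjusted p = 0.0917). The female call lay close to the threshold and was lost in 9 of the 37 fits that left out 1 mouse, with an adjusted p of up to 0.244. At 0.5 mg/kg the 5 males had 59.1, 32.8, 43.9, 46.5 and 23.7 CPM, all below the lowest control male, but the difference did not pass the threshold (log2 fold change -0.99, SE 0.32, adjusted p = 0.21). The share of all probes doing so at this dose was not counted.

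Tat, tyrosine aminotransferase, the first and rate-limiting enzyme of tyrosine breakdown in liver, was lowered in males and not called in females, and its response differed between the sexes. The gene lies at chr8:109990437-109999803 and has 1 probe. Control males had 37.1, 55.9, 44.1, 7.04 and 57.3 CPM and 5 mg/kg males 3.54, 5.85, 8.63 and 4.64 CPM. All but 1 control male were far above the 5 mg/kg males, and the fourth control male fell inside their range. The level was 7.25-fold lower (log2 fold change -2.86, SE 0.53, adjusted p = 0.000204), and leaving out any 1 mouse gave log2 fold changes between -3.15 and -2.70. Control females had 11.6, 13.8, 21.8, 11.1 and 26.2 CPM and 5 mg/kg females 16.9, 13.86, 18.7 and 38.5 CPM. These groups overlapped (log2 fold change 0.38, SE 0.46, adjusted p = 0.976). The interaction of sex and dose at 5 mg/kg was -3.23 on the log2 scale (SE 0.69, 95% interval -4.63 to -1.84, edgeR adjusted p = 0.0157). Across all probes 0.63% had an interaction past the threshold, and of the 18 probes Tat and Sds probe 65289 did.

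At the lower doses no difference in Tat passed the test, and the female means were above the control mean. Females at 0.1 mg/kg had 26.03, 14.7, 36.6, 23.8 and 51.4 CPM and at 0.5 mg/kg 50.8, 26.1, 60.7 and 49.1 CPM. Of the 4 females at 0.5 mg/kg, 3 were above every control female and 1 was just inside the control range. The log2 fold change was 0.85 at the lower and 1.46 at the higher of these doses, and neither passed the edgeR threshold (adjusted p = 1 and 0.681, unadjusted p = 0.00284 at 0.5 mg/kg). With the females fitted apart from the males, the 0.5 mg/kg difference passed (edgeR log2 fold change 1.47, adjusted p = 0.0829). Males at 0.1 mg/kg had 56.8, 19.6, 22.95, 29.6 and 11.3 CPM and at 0.5 mg/kg 50.1, 13.6, 22.6, 29.96 and 92.00 CPM, a spread that held most of the control values. The interaction at these doses, tested after the values of Tat had been seen, was -1.37 at 0.1 mg/kg, against -1.41 at 0.5 mg/kg on the log2 scale, and neither passed (edgeR adjusted p = 1 and 0.936).

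Sds, serine dehydratase, which turns serine into pyruvate and ammonia, was lowered in males with both of its probes and was called in females with neither. It lies at chr5:120476526-120483932. With leading probe 29690, control males had 90.6, 205, 112, 31.8 and 70.2 CPM and 5 mg/kg males 43.2, 41.9, 6.38 and 29.8 CPM, which overlapped (3.31-fold lower, log2 fold change -1.73, SE 0.48, adjusted p = 0.0156). With probe 65289, control males had 37.8, 64.9, 45.9, 25.5 and 22.9 CPM and 5 mg/kg males 5.90, 8.72, 7.13 and 6.64 CPM, without overlap and 5.51-fold lower (log2 fold change -2.46, SE 0.43, adjusted p = 7.74e-05). The 5 mg/kg males were tightly grouped with this probe, at 19 to 79 counts a mouse. Control females had 65.1, 25.8, 18.5, 41.6 and 59.7 CPM and 5 mg/kg females 29.9, 27.8, 29.8 and 53.2 CPM with probe 65289, all within the control range. The log2 fold change in females was -0.39 (95% interval -1.30 to 0.52) with probe 29690 and -0.26 (95% interval -1.03 to 0.51) with probe 65289. The interaction of sex and dose was -2.20 with probe 65289 (SE 0.56, edgeR adjusted p = 0.0678) and -1.34 with probe 29690 (edgeR adjusted p = 0.448). The call of probe 65289 was lost in 7 of the 37 fits that left out 1 mouse (adjusted p up to 0.207), and with the counts of both probes summed the interaction was not called (-1.53, edgeR adjusted p = 0.366).

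**Figure D2:**
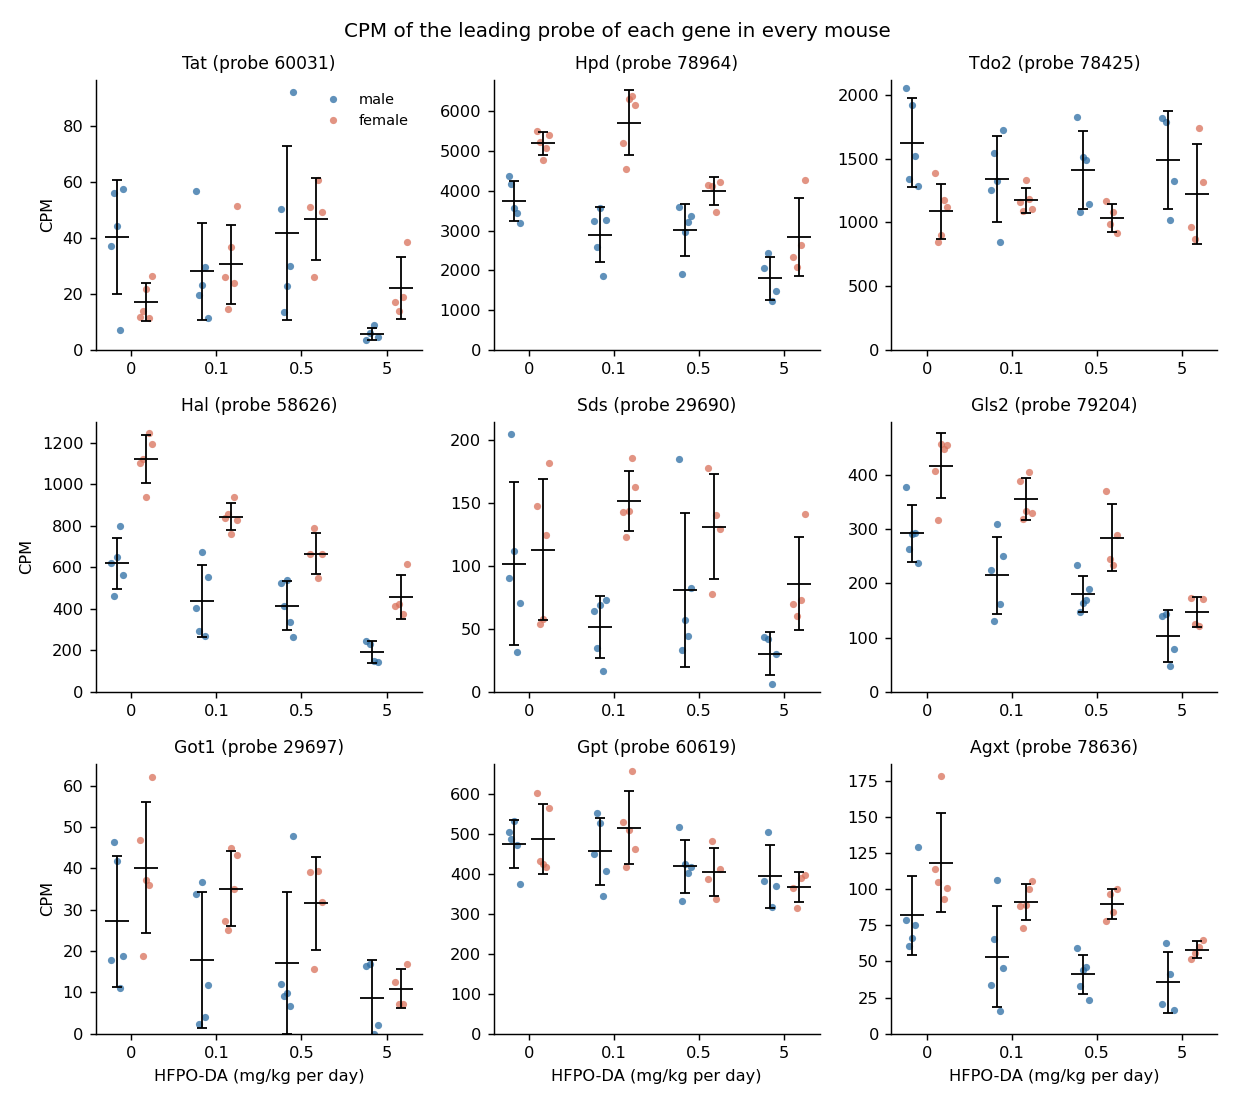
CPM (y axis, starting at 0) of the leading probe of each gene in every mouse at each dose of HFPO-DA in mg/kg per day (x axis, evenly spaced), with males in blue and females in red. The bar is the mean and the whiskers are the SD, which run below the axis for Got1 in males. Hal and Gls2 are lower at 5 mg/kg than at 0 mg/kg in both sexes without overlap, Tat at 5 mg/kg lies between 3.54 and 8.63 CPM in males and between 13.86 and 38.5 CPM in females, and Gpt and Tdo2 show overlapping 0 and 5 mg/kg groups in males.

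Got1, the cytosolic aspartate aminotransferase of the malate-aspartate shuttle, had low levels in all its 3 probes and varied widely between mice. It lies at chr19:43499752-43524605 on the reverse strand. With leading probe 29697, control males had 17.9, 46.3, 41.7, 11.2 and 18.8 CPM and 5 mg/kg males 16.3, 16.8, 0 and 2.01 CPM. Control females had 46.7, 18.7, 37.3, 35.999 and 62.1 CPM and 5 mg/kg females 12.5, 7.11, 7.11 and 16.9 CPM. The male groups overlapped and the female groups did not. The log2 fold change was -1.58 in males (95% interval -2.92 to -0.25, edgeR adjusted p = 0.132) and -1.88 in females (95% interval -3.20 to -0.56, edgeR adjusted p = 0.124), so neither passed the threshold. With the females fitted apart, all 3 probes were lowered in them (edgeR adjusted p = 0.000504 for probe 29697, 0.0253 for probe 69078 and 0.0066 for probe 73162). DESeq2 called probe 29697 in females (adjusted p = 0.074). Without the libraries under 5000000 counts, edgeR called probes 29697 and 73162 in females (adjusted p = 0.0406 and 0.0485). Summing the 3 probes gave a call in males (log2 fold change -1.75, edgeR adjusted p = 0.0655) and none in females (edgeR adjusted p = 0.141). Probe 69078 was lowered in males (log2 fold change -2.61, SE 0.78, adjusted p = 0.0275), where control males had 8.65, 31.9, 29.2, 7.58 and 15.3 CPM and 5 mg/kg males 0, 6.29, 0 and 4.48 CPM. Both 5 mg/kg males at 0 were the libraries under 5000000 counts, and without the libraries under that depth the call was lost (edgeR log2 fold change -1.81, adjusted p = 0.152). It was also lost with the males fitted apart (edgeR adjusted p = 0.131) and with counts thinned to the smallest total (edgeR adjusted p = 0.192).

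Gpt, the cytosolic alanine aminotransferase whose activity in blood serves as a sign of liver injury, was not called at any dose. It lies at chr15:76695716-76699686 and has 1 probe. Control males had 505, 487, 531, 471 and 374 CPM and 5 mg/kg males 382, 505, 317 and 369.9 CPM, which overlapped. Control females had 601, 431, 424, 418 and 564 CPM and 5 mg/kg females 364, 315, 389 and 398 CPM, and these did not overlap. The log2 fold change was -0.27 in males (95% interval -0.61 to 0.07, edgeR adjusted p = 0.353) and -0.41 in females (95% interval -0.75 to -0.07, edgeR adjusted p = 0.242). DESeq2 called the female difference (log2 fold change -0.41, adjusted p = 0.0697).

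Tdo2, tryptophan dioxygenase, the first enzyme of the kynurenine pathway in liver, was not called at any dose in either sex. It lies at chr3:81957090-81976202 on the reverse strand and has 3 probes. With leading probe 78425, control males had 2060.3, 1341, 1923, 1519 and 1285 CPM and 5 mg/kg males 1819, 1788, 1021 and 1327 CPM. Control females had 1385, 849, 899, 1177 and 1123 CPM and 5 mg/kg females 966, 874, 1742 and 1315 CPM. With this probe both sexes overlapped between 0 and 5 mg/kg. The 95% interval of the log2 fold change was -0.54 to 0.28 in males and -0.24 to 0.58 in females, around values of -0.13 and 0.17 (edgeR adjusted p = 0.793 and 0.971). With probe 79341 the log2 fold change was -0.46 in males and 0.52 in females, and with probe 30013 it was -1.08 and 0.73. These probes had a negative value in males and a positive one in females, and the interaction of neither passed the threshold (edgeR adjusted p = 0.263 and 0.427). Every 5 mg/kg male was below every control male with probe 79341 (at most 133 against at least 139 CPM), as in 4.8% of all probes. That male difference was not called (edgeR adjusted p = 0.236). Without control female 1, probe 79341 was called higher in 5 mg/kg females (edgeR log2 fold change 0.74, adjusted p = 0.0752). Its interaction was also called in that fit (-1.20, edgeR adjusted p = 0.0999).

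The lower doses were compared with controls in the same way. No probe of the 9 genes was called at 0.1 or 0.5 mg/kg in either sex by edgeR. Over all probes the share called in either direction was 0% for both sexes at 0.1 mg/kg. At 0.5 mg/kg it was 0.625% among males and 0.113% among females. At an unadjusted p under 0.05, 5 of the 18 probes were lower in 0.1 mg/kg males and none in 0.1 mg/kg females, with 7.14% and 2.38% of all probes differing in either direction. At 0.5 mg/kg, 3 probes were lower in males (10.3% of all probes in either direction), and 3 were lower and 1 higher in females (4.33%). The 3 in males were Hal, Gls2 probe 79204 and Agxt, with log2 fold changes of -0.57, -0.70 and -0.99. With Gls2 probe 79204 every 0.5 mg/kg male was below every control male. With Hpd probe 78964 every 0.5 mg/kg female was below every control female. The share of all probes without overlap at this dose was not counted. DESeq2 called 0 probes at 0.1 mg/kg in either sex, Gls2 probe 79204 in 0.5 mg/kg males (log2 fold change -0.66, adjusted p = 0.0898) and Hal in 0.5 mg/kg females (log2 fold change -0.75, adjusted p = 0.0486).

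**Figure D3:**
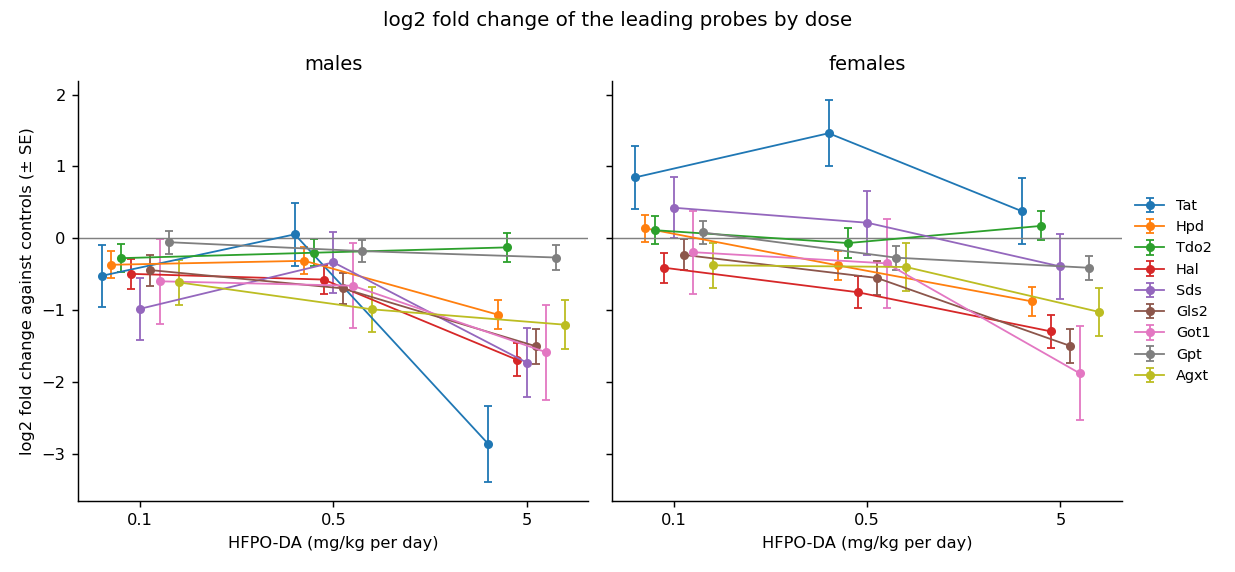
Log2 fold change against controls of the same sex, with its SE (y axis), of the leading probe of each gene at each of the 3 doses of HFPO-DA in mg/kg per day (x axis, evenly spaced), with males on the left and females on the right. At 5 mg/kg Tat is at -2.86 for males and 0.38 for females, and the Hal, Gls2, Hpd and Agxt values at 5 mg/kg lie between -1.69 and -0.88 in both sexes.

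Control males and control females were compared to see how the genes stood without HFPO-DA. Of the 18 probes, 3 differed, where 2.6% of all probes did. Hal was 1.81-fold lower in males than in females (log2 fold change -0.86, SE 0.21, adjusted p = 0.0129), and every control male, at most 798 CPM, was below every control female, at least 940.2 CPM. Tdo2 was higher in males with 2 of its 3 probes. With probe 79341 control males had 168, 139, 255, 141 and 147 CPM and control females 129.8, 76.8, 65.2, 60.4 and 80.6 CPM (log2 fold change 1.04, SE 0.22, adjusted p = 0.00323). With probe 30013 control males had 13.3, 6.75, 20.2, 11.7 and 11.2 CPM and control females 2.72, 1.23, 1.78, 2.26 and 3.66 CPM (log2 fold change 2.43, SE 0.58, adjusted p = 0.0111). The leading Tdo2 probe had the same sign (log2 fold change 0.58, edgeR adjusted p = 0.135). DESeq2 called it (log2 fold change 0.61, adjusted p = 0.0162), and so did edgeR with the Tdo2 probes summed (0.64, adjusted p = 0.0584). The value for Tat, 1.25, did not pass (edgeR adjusted p = 0.184). It was called by DESeq2 (1.28, adjusted p = 0.0624) and by edgeR without control male 4 (1.54, adjusted p = 0.0423).

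The other genes of amino acid breakdown were counted at their leading probe in 9 pathway lists of 81 genes, of which 80 were tested. At 5 mg/kg, 32 were lowered and 3 raised in males, and 14 were lowered and 2 raised in females, by edgeR. Over the leading probes of all genes, 8.86% were lowered and 4.65% raised in males, and 2.51% were lowered and 2.42% raised in females, against 40% and 3.75%, and 17.5% and 2.5%, of the listed genes. These lists were also written with earlier results of these data known, so this comparison is not an independent test. The median log2 fold change of the listed genes was -0.50 in males and -0.29 in females, with -0.11 and -0.02 over the leading probes of all genes. By edgeR 0 of the 80 had a called interaction of sex and dose at 5 mg/kg, and at an unadjusted p under 0.05 the interaction was negative for 10 and positive for 2 of them. Over the leading probes of all genes 0.439% had a called negative and 0.185% a called positive interaction, and at an unadjusted p under 0.05 it was negative for 7.7% and positive for 2.99% of all probes.

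In tyrosine breakdown, which Tat and Hpd belong to, 3 of the 6 listed genes were lowered in males and 2 in females, among them Fah and Gstz1 in males and Fah in females. Fah, the last enzyme of the pathway, had a log2 fold change of -0.81 (males, edgeR adjusted p = 0.000758) and -0.54 (females, adjusted p = 0.0588). Gstz1, which acts just before Fah, had -0.64 (males, edgeR adjusted p = 0.0121) and -0.36 (females, adjusted p = 0.366). In tryptophan and kynurenine breakdown 4 of 11 genes were lowered in males and 1 in females. Haao, which makes the precursor of quinolinate, had a log2 fold change of -0.96 (males, edgeR adjusted p = 7.82e-06) and -0.36 (females, adjusted p = 0.229). Kynu, the kynureninase, had -0.85 (males, edgeR adjusted p = 0.00344) and -0.48 (females, adjusted p = 0.236), and Afmid, the formamidase acting right after Tdo2, -0.60 (males, edgeR adjusted p = 0.0824) and -0.31 (females, adjusted p = 0.748). Acmsd, which diverts the pathway away from NAD, had -1.51 (males, edgeR adjusted p = 0.167) and -2.13 (females, adjusted p = 0.0867). All 3 further histidine genes, which follow Hal in its pathway, were lowered in males and none in females. These were Ftcd, with a log2 fold change of -1.19 (males, edgeR adjusted p = 0.000425) and -0.24 (females, adjusted p = 0.905), Uroc1, with -0.55 (males, edgeR adjusted p = 0.0477) and -0.28 (females, adjusted p = 0.636), and Amdhd1, with -0.62 (males, edgeR adjusted p = 0.0858) and -0.57 (females, adjusted p = 0.223).

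In serine, glycine and threonine breakdown, the list nearest to Sds and Agxt, 7 of 15 tested genes were lowered and 1 raised in males, and 5 were lowered and 1 raised in females. Gnmt, which uses glycine to dispose of methyl groups, fell from 5046 ± 749 (SD, n = 5) to 1612 ± 447 CPM (SD, n = 4) among males, a log2 fold change of -1.65 (males, edgeR adjusted p = 2.47e-07) and -1.08 (females, adjusted p = 0.000447). Pipox, a peroxisomal sarcosine and pipecolate oxidase, had -1.06 (males, edgeR adjusted p = 0.000626) and -0.86 (females, adjusted p = 0.0093), and Gldc, the decarboxylase of the glycine cleavage system, -1.63 (males, edgeR adjusted p = 0.000897) and -0.96 (females, adjusted p = 0.102). Grhpr, the glyoxylate and hydroxypyruvate reductase, was raised in both sexes. It rose from 158 ± 18.1 (SD, n = 5) to 378 ± 91.1 CPM (SD, n = 4) in females and had a log2 fold change of 0.61 (males, edgeR adjusted p = 0.021) and 1.26 (females, adjusted p = 1.94e-06). Agxt, which also consumes glyoxylate, had the opposite direction in the same mice.

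Among the genes of glutamine, glutamate, aspartate and alanine breakdown, 1 of 8 was lowered in each sex. This was Glud1, glutamate dehydrogenase, which releases the amino groups collected by the transaminases, with a log2 fold change of -0.52 (males, edgeR adjusted p = 0.0205) and -0.70 (females, adjusted p = 0.00214). In methionine and cysteine breakdown 4 of 9 genes were lowered in males, and 3 were lowered and 1 raised in females. Cdo1, the cysteine dioxygenase, had -1.84 (males, edgeR adjusted p = 2.29e-08) and -0.86 (females, adjusted p = 0.00664). Cth, cystathionine gamma-lyase, had -0.88 (males, edgeR adjusted p = 0.0196) and -1.56 (females, adjusted p = 4.49e-05), and Mat1a, which makes S-adenosylmethionine, -0.78 (males, edgeR adjusted p = 0.01) and -0.40 (females, adjusted p = 0.417). Csad, of taurine synthesis, was raised in females from 4.08 ± 5.30 (SD, n = 5) to 30.5 ± 10.7 CPM (SD, n = 4), with a log2 fold change of 1.28 (males, edgeR adjusted p = 0.107) and 2.89 (females, adjusted p = 0.000305). In branched-chain amino acid breakdown 6 of 19 genes were lowered and 2 raised in males, and 1 was lowered in females. Hibadh, of valine breakdown, had -1.11 (males, edgeR adjusted p = 0.000596) and -0.31 (females, adjusted p = 0.743), Acadsb, a dehydrogenase of isoleucine breakdown, -0.75 (males, edgeR adjusted p = 0.0363) and -0.82 (females, adjusted p = 0.0325), and Dbt, a subunit of the branched-chain keto acid dehydrogenase, -1.04 (males, edgeR adjusted p = 0.0503) and -0.69 (females, adjusted p = 0.382). Hsd17b10, of isoleucine breakdown, was raised in males, with 1.87 (males, edgeR adjusted p = 0.0278) and -0.29 (females, adjusted p = 1), at a control level of 4.399 ± 3.42 CPM (SD, n = 5). The second gene raised in males, named after its value was seen, was Bckdk, the kinase that inhibits the keto acid dehydrogenase, with 1.89 (males, edgeR adjusted p = 0.0599) and -0.09 (females, adjusted p = 1).

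For lysine 1 of 4 genes was lowered in males and none in females, namely Aass, which catalyzes the first steps, with -0.77 (males, edgeR adjusted p = 0.0185) and -0.09 (females, adjusted p = 1). For proline, hydroxyproline and ornithine 3 of 5 were lowered in males and 1 in females. Prodh, proline dehydrogenase, had a log2 fold change of -1.82 (males, edgeR adjusted p = 4.84e-06) and -1.42 (females, adjusted p = 0.000315), Hoga1, of hydroxyproline breakdown, -0.80 (males, edgeR adjusted p = 0.00117) and -0.28 (females, adjusted p = 0.585), and Oat, ornithine aminotransferase, -1.61 (males, edgeR adjusted p = 0.00306) and -0.99 (females, adjusted p = 0.155). At 0.5 mg/kg, 2 of the 80 genes were called in males and 0 in females by edgeR. Over the leading probes of all genes, 0.423% were raised and 0.277% lowered in these males. The 2 in males were Cdo1, lowered with a log2 fold change of -0.70 (edgeR adjusted p = 0.0969), and Hibch, of valine breakdown. Hibch was named after its value was seen and was raised with 0.69 (edgeR adjusted p = 0.0659). At an unadjusted p under 0.05, 9 of the 80 were lower and 2 higher in males, where 6.22% and 4.04% of all probes were. In females 2 were lower and 0 higher, where 2.07% and 2.26% of all probes were.

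**Figure D4:**
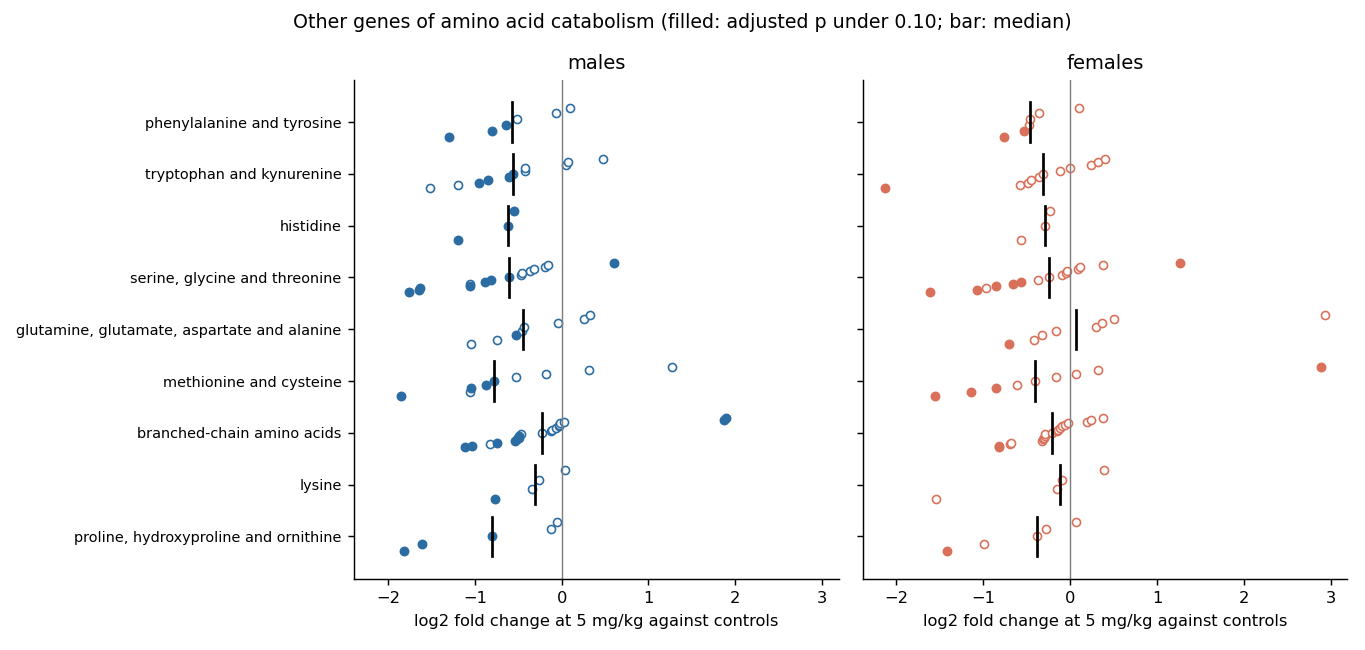
Log2 fold change at 5 mg/kg against controls of the same sex (x axis) of the other genes of amino acid catabolism, 1 point a gene at its leading probe, in 9 lists (y axis), with males on the left and females on the right. The black bar is the median of a list and filled points have an adjusted p under 0.10. Filled points lie left of 0 for 32 genes in males and 14 in females, and right of 0 for 3 and 2.

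Several markers of hepatocyte zones were lowered as well. At 5 mg/kg, 6 of the 8 periportal hepatocyte markers were lowered among males and 3 among females, and of 8 pericentral markers 5 and 4 were lowered. Over the leading probes of all genes, 8.86% were lowered in males and 2.51% in females by edgeR. The periportal markers summed to 16728 ± 3479 CPM in control males (SD, n = 5, range 13464 to 21757) and 8905 ± 1789 CPM in 5 mg/kg males (SD, n = 4, range 6648 to 10761). In females the sums were 16424 ± 2544 (range 12031 to 18055) and 11211 ± 2995 CPM (range 8666 to 15532). The pericentral markers, which include Oat and Glul of the lists above, summed to 7193 ± 2154 (range 5185 to 10547) and 3034 ± 1231 CPM (range 2011 to 4651) in males, and to 6696 ± 519 (range 5811 to 7082) and 3958 ± 1363 CPM (range 2914 to 5873) in females. Of the 6 general hepatocyte markers 3 were lowered in each sex, with sums of 17937 ± 2236 (range 15224 to 20630.0) and 13966 ± 909 CPM (range 12821 to 15047) in males and 25302 ± 3377 (range 20947 to 28578) and 18186 ± 985 CPM (range 17199 to 19552) in females. Among the 24 tested markers of Kupffer cells, endothelial cells, stellate cells, cholangiocytes and lymphocytes, 1 endothelial marker was lowered in males and none was called in females. At the shares given above, few of 24 genes would be called, so this count alone does not set these cells apart from hepatocytes. Over all groups the Kupffer cell, endothelial and stellate cell lists summed to 30.8 to 253, 282 to 544 and 87.9 to 939.5 CPM. The part of cell composition in the lower levels was not tested.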

How the data were processed

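Livers were fixed in formalin and embedded in paraffin, and sections of about 4 to 6 µm from 40 mice, 5 per sex and dose, were assayed by TempO-Seq. The authors generated the reads with bcl2fastq 2.17.1.14, aligned them with Bowtie (its version is not given in the sources used here), counted the reads on each probe, and excluded 3 mice whose depth or number of detected probes was too low. The deposited values are raw counts per probe without normalization, so 18 probes of the 9 genes were read directly. The name of a probe gives a symbol and a number, and the position of a probe within its transcript is not given in the sources used here. The labels gave the sex and dose of every mouse. Replicates are individual mice, numbered in accession order only, and no pair of mice had identical counts.

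R 4.3.3 with edgeR 4.0.16 was used for the tests. Low probes were removed by filterByExpr (8 sex-by-dose groups), libraries were scaled by TMM, and 1 quasi-likelihood model with a mean for each group covered all 37 mice. Each dose was compared with controls of the same sex, control males with control females, and the interaction of sex and 5 mg/kg was tested. P-values were adjusted by Benjamini-Hochberg over all 18570 probes. DESeq2 1.42.0, other size factors, no filter, each sex fitted apart, counts thinned to the smallest total, summed probes, a threshold of 0.05 and leaving out libraries were tried as alternatives. Scripts were tested on simulated data. The 9 genes and all gene lists were chosen with earlier results of these data known. In the pathway lists, genes called at 5 mg/kg in either sex were named, at most 4 per list with the smallest adjusted p. A result that this rule would have named is not reported here. Marker lists were given as counts and sums. Genes were placed with GENCODE M21, and promoter sequences came from RefSeq, both on GRCm38. Precision is lowest for probes with few counts and in the shallowest libraries, and limits given for 0 counts cover counting error only.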

Additional observations from a re-analysis of the deposited data

Results flagged for a closer look

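Each of the 18 probes was examined in its 8 groups of 4 or 5 mice, 144 groups in all, for a mouse standing apart by Dixon's test at its 95% critical value. This flags about 1 group in 20 by chance, and 9 values were picked out. Female 4 at 5 mg/kg was the highest of its group with Hpd probe 66976 (683 CPM, the next at 470.3 CPM), Sds probe 29690 (141 CPM, the next at 73.0 CPM) and Sds probe 65289 (53.2 CPM, the next at 29.9 CPM). Hpd probe 78964 was lowest in female 3 at 0.5 mg/kg (3463 CPM, the next at 4133 CPM). Tdo2 probe 79341 was highest in control male 3 (255 CPM, the next at 168 CPM) and in male 1 at 0.5 mg/kg (207 CPM, the next at 149 CPM). Got1 probe 29697 was highest in male 5 at 0.5 mg/kg (47.8 CPM, the next at 12.1 CPM). Agxt was highest in control male 5 (129 CPM, the next at 78.8 CPM) and in control female 3 (178 CPM, the next at 114 CPM).

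The response to 5 mg/kg differed between males and females by the interaction term of edgeR for Tat (-3.23 on the log2 scale, adjusted p = 0.0157) and for Sds probe 65289 (-2.20, adjusted p = 0.0678). Both were lower in 5 mg/kg males than in control males and not called in females. Reproductive status and age cannot be told apart from sex here.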

How the results depend on the processing

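At 5 mg/kg the number of lowered probes ranged from 11 to 14 in males and from 5 to 8 in females when each mouse was left out in turn, and at 0.1 and 0.5 mg/kg it was 0 in each of these fits. Between control males and control females 3 to 4 probes were called in either direction. The interaction held 1 to 3 probes, with Sds probe 65289 lost in 7 of 37 fits and Tdo2 probe 79341 gained without control female 1. The fit without control female 1 also called Tdo2 probe 79341 higher in 5 mg/kg females. Without any filter 1 probe was called in 0.5 mg/kg males and 6 between the control sexes. DESeq2 called 1 in 0.5 mg/kg males, 1 in 0.5 mg/kg females and 7 between the control sexes, and it gave no adjusted p for 3 of the 18 probes in 0.5 mg/kg females. With each sex fitted apart, 2 were called in 0.5 mg/kg females, 11 in 5 mg/kg females and 9 in 5 mg/kg males, where the calls of Gls2 probe 64576 and Got1 probe 69078 were lost. The interaction held 1 probe with counts thinned to the smallest total, 1 at an adjusted p under 0.05, and 1 gene with the probes of a gene summed. Without the libraries under 5000000 counts, 8 probes were lowered in 5 mg/kg males and 9 in 5 mg/kg females.

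Among the leading-probe values at 5 mg/kg, 3 changed sign without 1 mouse, and none of them was called. These were Tdo2 in males (0.016 without male 3 at 5 mg/kg), Tdo2 in females (-0.048 without female 3 at 5 mg/kg) and Tat in females (-0.040 without female 4 at 5 mg/kg). Leaving out 1 mouse at a time, the log2 fold change of Tdo2 ran from -0.27 to 0.016 in males and from -0.048 to 0.29 in females, and that of Tat in females from -0.040 to 0.59. The female call of Agxt was lost in 9 of the 37 fits and that of Gls2 probe 64576 in 5, and Got1 probe 29697 was gained in 5 in each sex. Gls2 probe 66342, not called in 5 mg/kg males with all mice, was called lower in them in 22 of the 37 fits. DESeq2's size factors moved the median log2 fold change of all probes in 5 mg/kg males from -0.12 to -0.03 and left 11 and 7 lowered probes in males and females. The causes of these shifts were not tested. No paired analysis was run because control and dosed groups held different mice.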
